A study of Rattus norvegicus with 10 samples.

Results

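The genes of MHC class II antigen presentation were followed here: the invariant chain Cd74, the chains RT1-Ba and RT1-Bb, RT1-Da and RT1-Db1, RT1-DMa and RT1-DMb, and the transactivator Ciita. They were taken by symbol, without regard to their values, and each symbol was represented by its row with the highest mean count, which gave 8 of 32041 RNA records. Messenger RNA of the CA3 and dentate gyrus of the left hippocampus was counted in 10 adult male Sprague-Dawley rats, 3 months after surgery. The 5 TBI rats received lateral fluid percussion, a pressure pulse of 3.32 atm to the dura through an opening in the left parietal bone. The 5 sham rats shared the anaesthesia and the surgery but not the pulse, so the comparison asks what the pulse added to the operation. Each library was 1 rat, and the tissue was labelled as dorsal hippocampus.

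MHC class II molecules present peptides from endocytosed protein to CD4 T cells. Their alpha and beta chains meet the invariant chain Cd74 in the endoplasmic reticulum, cathepsins degrade Cd74 in endosomes, and the RT1-DM dimer exchanges the last invariant chain fragment for an antigenic peptide. RT1-B and RT1-D are the classical presenting molecules of the rat, with HLA-DQ and HLA-DR as human counterparts. In brain tissue class II is known from activated microglia, from macrophages at the vessels and meninges, and from leukocytes that enter.

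Class II promoters are known for an X box, bound by the RFX factors, followed by a Y box bound by NF-Y, on which Ciita assembles. RefSeq promoters of the GRCr8 assembly were found for 6 of the 8 members, none for RT1-DMb and Ciita. The sequences below are shown because these letters are what the classical chains and RT1-DMa have in common. Each is written 5′ to 3′ on the strand of the gene and ends before the transcription start. Capitals mark GNNACNG, a relaxed core of the X box, and GATTGG, the Y box. RT1-Da is at chr20:4515321-4515376 (plus strand), RT1-Db1 at chr20:4560232-4560286 (minus), RT1-Ba at chr20:4576969-4577024 (plus), RT1-Bb at chr20:4604169-4604223 (minus) and RT1-DMa at chr20:4712389-4712444 (minus).
RT1-Da: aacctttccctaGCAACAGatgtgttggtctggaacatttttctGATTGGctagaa
RT1-Db1: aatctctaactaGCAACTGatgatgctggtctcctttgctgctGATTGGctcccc
RT1-Ba: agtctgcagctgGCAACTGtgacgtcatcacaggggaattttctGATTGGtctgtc
RT1-Bb: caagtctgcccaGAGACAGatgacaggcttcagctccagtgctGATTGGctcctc
RT1-DMa: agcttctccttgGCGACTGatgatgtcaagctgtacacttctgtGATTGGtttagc

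In these 5 genes, 24 or 25 bases lay between the marked letters, and the Y box began 44 to 81 bases before the start. The pair is not particular to the members. The class II genes RT1-DOb and RT1-Db2 also held it, with 22 and 23 bases between, and RT1-DOa did not. Among all 33469 promoters, 0.406% held GNNACNG and then GATTGG on the strand of the gene with 20 to 30 bases between them in the 250 bases before the start, and 0.693% when either strand was searched. GATTGG alone was in 13.3% of promoters and GNNACNG alone in 82.1%, both strands searched. The letters and their spacing were chosen with these sequences in view. The Cd74 promoter, at chr18:56526977-56527033 (plus strand), did not hold this pair. It is shown with capitals on AGAAAC and on CCAAT, which is the reverse complement of the ATTGG in the Y box. CCAAT, on either strand, was in 34% of promoters, and the share with AGAAAC was not counted. AGAAAC is not the GNNACNG core, and whether it stands for an X box was not tested.
Cd74: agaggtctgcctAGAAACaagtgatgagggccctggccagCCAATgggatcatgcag

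On GRCr8 the RT1 members are neighbours on chromosome 20, in the order RT1-Da, RT1-Db1, RT1-Ba, RT1-Bb, RT1-DMb and RT1-DMa. Between RT1-Bb and RT1-DMb the RefSeq table lists 5 protein-coding genes, RT1-DOb and the class I genes Tap2, Psmb8, Tap1 and Psmb9. Cd74 is on chromosome 18 and Ciita on chromosome 10.

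Total counts on RNA records ran from 23425817 to 31671838 per library. Ribosomal RNA rows took 59.0% of the counts in sham rat 4 and 58.5% in sham rat 5, and 12.5% to 26.2% in the other 8 rats. Levels are given as CPM, counts scaled to the library size after TMM normalization, and changes as log2 of TBI over sham. Marker genes of CA3 and of dentate granule cells were present in every library, as were CA1 markers, whose summed level was 70.9 to 145 CPM in sham rats and 53.6 to 484 CPM in TBI rats. Of all 22431 rows tested, 0 passed an adjusted p of 0.05 by edgeR's quasi-likelihood test with Benjamini-Hochberg adjustment (0%). An unadjusted p under 0.05 was reached by 1769 rows (7.89%), 1097 of them higher in TBI (4.89%). DESeq2 gave 3 rows past an adjusted p of 0.05, limma voom with sample weights 0, and edgeR's exact test 0 with and 51 without robust estimation.

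The invariant chain and the classical chains had higher means in TBI rats, and the peptide exchange chain RT1-DMa was at nearly the same mean in both groups, with a change whose sign turned between fits. Cd74, RT1-Da and RT1-Db1 had the smallest p-values, with group means 1.87, 1.64 and 2.06 times those of the sham rats. Of the 7 members with enough counts to be tested, these 3 had an unadjusted p under 0.05 by edgeR's quasi-likelihood test, all higher in TBI, where 4.89% of all rows did. None of the 7 passed an adjusted p of 0.05, and 0 reached an unadjusted p under 0.001, as did 0.156% of all rows in that direction. Their median log2 change was 0.65, and that of all rows was -0.01. In 0 of the 7 did every TBI rat lie above every sham rat, a pattern found in 0.499% of all rows. Members with an unadjusted p under 0.05 numbered 0 of 7 without sham rats 4 and 5, the libraries rich in ribosomal RNA, and 6 of 7 without sham rat 1, which had the highest sham level of every member but RT1-Db1. They numbered 0 of 7 with the ribosomal share as a covariate.

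**Figure D1:**
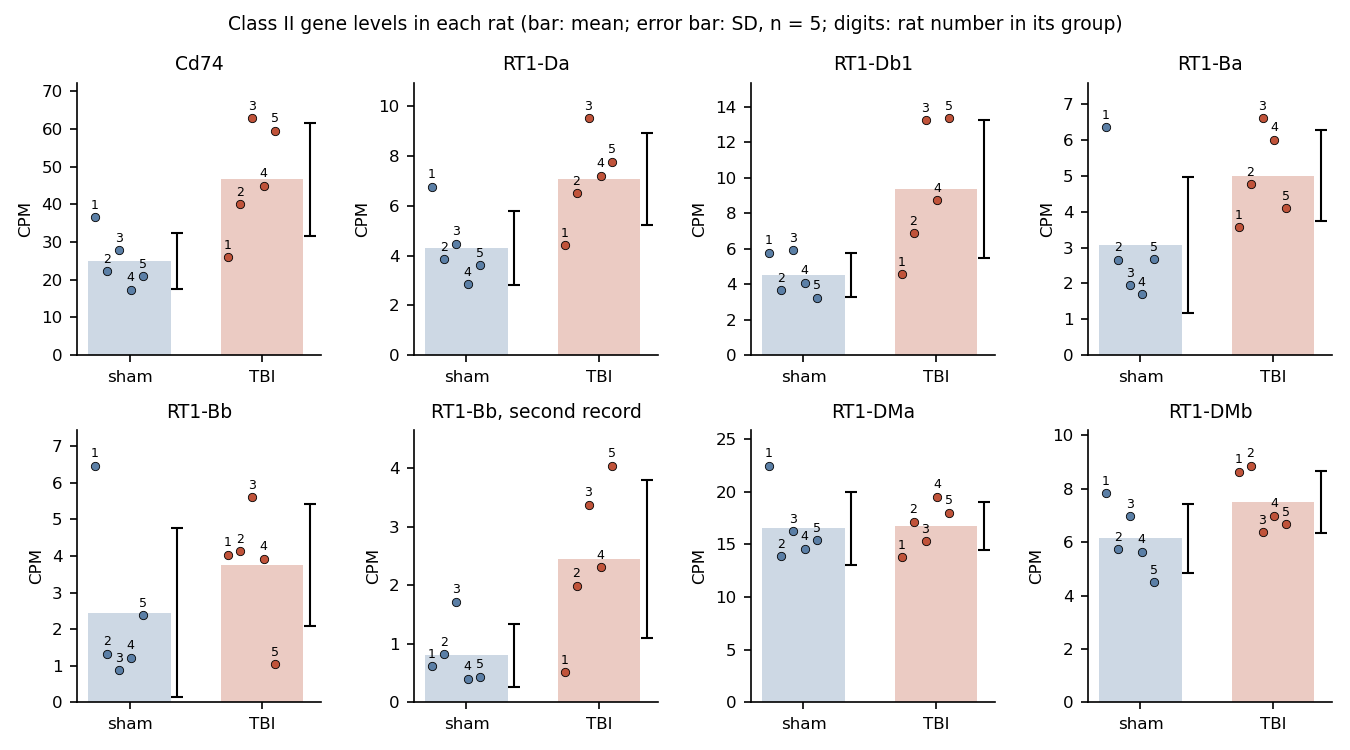
Level of each tested class II member in each rat, in CPM, with the group mean as a bar, the SD (n = 5) as an error bar and the number of the rat beside its point. The TBI means of Cd74, RT1-Da and RT1-Db1 are above the sham means while TBI rat 1 stays within the sham range, and RT1-DMa has like means in both groups.

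Cd74, the chaperone that occupies the peptide groove of new class II molecules, was at 36.6, 22.3, 27.8, 17.3 and 20.9 CPM in sham rats 1 to 5. In TBI rats 1 to 5 it was at 25.9, 40.1, 62.8, 45.0 and 59.5 CPM. TBI rats 2 to 5 were above every sham rat, and TBI rat 1 was within the sham range. It averaged 25.0 ± 7.52 CPM in the sham group and 46.6 ± 15.01 CPM in the TBI group (SD, n = 5 each). The log2 change was 0.89 (standard error, SE, 0.28), with an unadjusted p of 0.0109 and an adjusted p of 0.510 by edgeR's quasi-likelihood test with Benjamini-Hochberg adjustment. A two-sided exact permutation test on log2(CPM + 0.5) gave a difference of 0.87 and p = 0.0238, where the smallest p that 5 against 5 rats allow is 0.00794. Without sham rats 4 and 5, which had the lowest Cd74 levels together with the highest ribosomal RNA, this difference was 0.64 (exact permutation p = 0.107). By edgeR's exact test without robust estimation Cd74 and RT1-Db1 passed an adjusted p of 0.05, as did 0.12% of all rows in that direction.

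RT1-Da, the alpha chain of RT1-D, was at 6.77, 3.84, 4.48, 2.85 and 3.62 CPM in sham rats 1 to 5 and at 4.41, 6.52, 9.50, 7.21 and 7.77 CPM in TBI rats 1 to 5. Of the 5 TBI rats, 3 were above every sham rat. The log2 change was 0.67 (SE 0.23, edgeR unadjusted p = 0.0111, adjusted p = 0.511). Its partner RT1-Db1, the beta chain, was at 5.77, 3.66, 5.91, 4.08 and 3.25 CPM in sham rats and at 4.58, 6.89, 13.2, 8.73 and 13.3 CPM in TBI rats. TBI rats 2 to 5 were again above every sham rat, and TBI rats 3 and 5 had more than any other rat. Of the 7 tested members RT1-Db1 had the largest log2 change, 1.02 (SE 0.31, edgeR unadjusted p = 0.00937, adjusted p = 0.505). Cd74, RT1-Da and RT1-Db1 are also on the study's own list of genes altered after TBI, where each has an adjusted p under 0.05, unlike here. The same holds for the second RT1-Bb record, given below. The study describes a negative binomial model in edgeR with shrinkage rather than a quasi-likelihood test, and its methods state fewer sham rats for this assay. That list was drawn from rats of this same series and is not independent evidence of the direction of these genes.

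RT1-Ba, the alpha chain of RT1-B, was at 6.37, 2.66, 1.95, 1.70 and 2.69 CPM in sham rats 1 to 5 and at 3.57, 4.76, 6.60, 6.01 and 4.09 CPM in TBI rats 1 to 5. Every TBI rat was above sham rats 2 to 5, and sham rat 1 was above every TBI rat but the third. With all rats the log2 change was 0.65 (SE 0.34, edgeR unadjusted p = 0.0901). Without sham rat 1 it was 1.14 (edgeR unadjusted p = 2.09e-05, adjusted p = 0.315). With all rats kept, the unadjusted p was 0.0477 by edgeR's exact test and 0.0482 by its likelihood ratio test. It was 0.000976 by limma voom with sample weights. That fit gives each library its own weight and put the log2 change at 1.02. In each of these fits the adjusted p was above 0.05. Of 26 alternative fits, 6 gave RT1-Ba an unadjusted p under 0.05. Its log2 change was 0.38 with the ribosomal share as a covariate (edgeR unadjusted p = 0.390) and 0.44 with a surrogate variable (edgeR unadjusted p = 0.256). Without sham rats 4 and 5 it was 0.45 (edgeR unadjusted p = 0.273).

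RT1-Bb, the beta chain of RT1-B, had counts on more than 1 record. The record with the higher mean count (NM_001004084) was at 6.46, 1.33, 0.877, 1.22 and 2.37 CPM in sham rats 1 to 5 and at 4.03, 4.12, 5.60, 3.92 and 1.04 CPM in TBI rats 1 to 5, and its log2 change was 0.54 (SE 0.62, edgeR unadjusted p = 0.408). A second record (NM_001101017), without a symbol in the RefSeq table but called RT1-Bb in the study's list of altered genes, was at 0.624, 0.826, 1.72, 0.408 and 0.437 CPM in sham rats and at 0.522, 1.995, 3.37, 2.31 and 4.04 CPM in TBI rats. Its log2 change was 1.499 (SE 0.55, edgeR unadjusted p = 0.0215, adjusted p = 0.555). The records divided the counts differently from rat to rat: the first held 91.2%, 61.7%, 33.8%, 75.0% and 84.4% of the counts on both in sham rats and 88.5%, 67.4%, 62.4%, 62.9% and 20.4% in TBI rats. The share thus ranged widely within both groups. Class II beta chains are known to be polymorphic and Sprague-Dawley is an outbred stock, but a part of alleles in these shares was not tested. Summed, the records averaged 3.26 ± 2.19 CPM in the sham group and 6.19 ± 1.71 CPM in the TBI group (SD, n = 5 each), a log2 change of 0.86 (SE 0.37, edgeR unadjusted p = 0.0447). Counts of RT1 genes are uncertain in general, since near-identical copies and alleles can share reads of 36 bases.

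**Figure D2:**
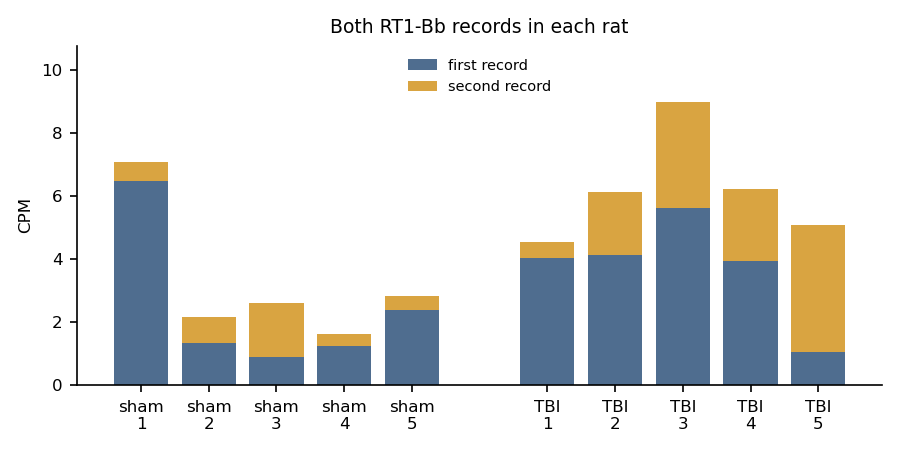
CPM on the first and on the second RT1-Bb record, stacked, in each sham and TBI rat. The first record held 91.2% of the counts in sham rat 1, 88.5% in TBI rat 1 and 20.4% in TBI rat 5.

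RT1-DMa and RT1-DMb form the dimer that loads peptide and are not themselves presenting molecules. RT1-DMa was at 22.5, 13.9, 16.2, 14.6 and 15.4 CPM in sham rats 1 to 5 and at 13.8, 17.2, 15.3, 19.5 and 18.0 CPM in TBI rats 1 to 5. The groups overlapped almost fully, with a log2 change of 0.01 and a standard error of 0.13 (edgeR unadjusted p = 0.915). RT1-DMb was at 7.83, 5.75, 6.98, 5.64 and 4.50 CPM in sham rats and at 8.64, 8.86, 6.36, 6.99 and 6.68 CPM in TBI rats, a log2 change of 0.27 (SE 0.14, edgeR unadjusted p = 0.0703). TBI rat 3, with the highest Cd74, had the lowest RT1-DMb of its group.

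Since ratios of counts within 1 library do not depend on its scaling, the members were also set against Cd74 rat by rat, a comparison chosen after the levels were seen. RT1-DMa counts were 61.3%, 62.2%, 58.5%, 84.3% and 74.0% of Cd74 counts in sham rats 1 to 5 and 53.1%, 42.8%, 24.4%, 43.5% and 30.3% in TBI rats 1 to 5. Every sham rat was above every TBI rat. How many of all rows would separate the groups in this way over Cd74 was not counted. RT1-DMa itself had a log2 change of 0.01 and Cd74 one of 0.89, so the ratio mostly restates the Cd74 difference. The ratio averaged 68.0% ± 10.8 in the sham group and 38.8% ± 11.4 in the TBI group (SD, n = 5 each), a log2 difference of -0.85 (two-sided exact permutation p = 0.00794, the smallest possible). In all 8 ratios were compared, 5 of them over Cd74 and the others RT1-Ba and RT1-Db1 over RT1-Da and RT1-DMb over RT1-DMa, while RT1-Bb, divided between records, was not included. RT1-DMa over Cd74 had the smallest p, which was 0.0635 after Benjamini-Hochberg adjustment over the 8. Without sham rats 4 and 5, whose ratios were the highest, the difference was -0.70 (exact permutation p = 0.0536).

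The groups overlapped in the other 7 ratios. RT1-Da was 16.1% to 18.5% of Cd74 in sham rats and 13.1% to 17.002% in TBI rats, while Cd74 itself ranged from 17.3 to 62.8 CPM. The ratio averaged 17.1% ± 0.910 in the sham group and 15.5% ± 1.52 in the TBI group (SD, n = 5 each, exact permutation p = 0.0476, adjusted over the 8 ratios 0.190). For RT1-Db1 the means were 18.5% ± 3.66 and 19.6% ± 2.22 (SD, n = 5 each, exact permutation p = 0.524), and for RT1-Ba 11.8% ± 3.84 and 11.3% ± 2.78 (SD, n = 5 each, exact permutation p = 0.897). RT1-DMb was 25.3% ± 4.53 of Cd74 in sham rats and 18.5% ± 9.55 in TBI rats (SD, n = 5 each, exact permutation p = 0.135), with TBI rats 3, 4 and 5 below every sham rat and TBI rat 1 above all of them.

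**Figure D3:**
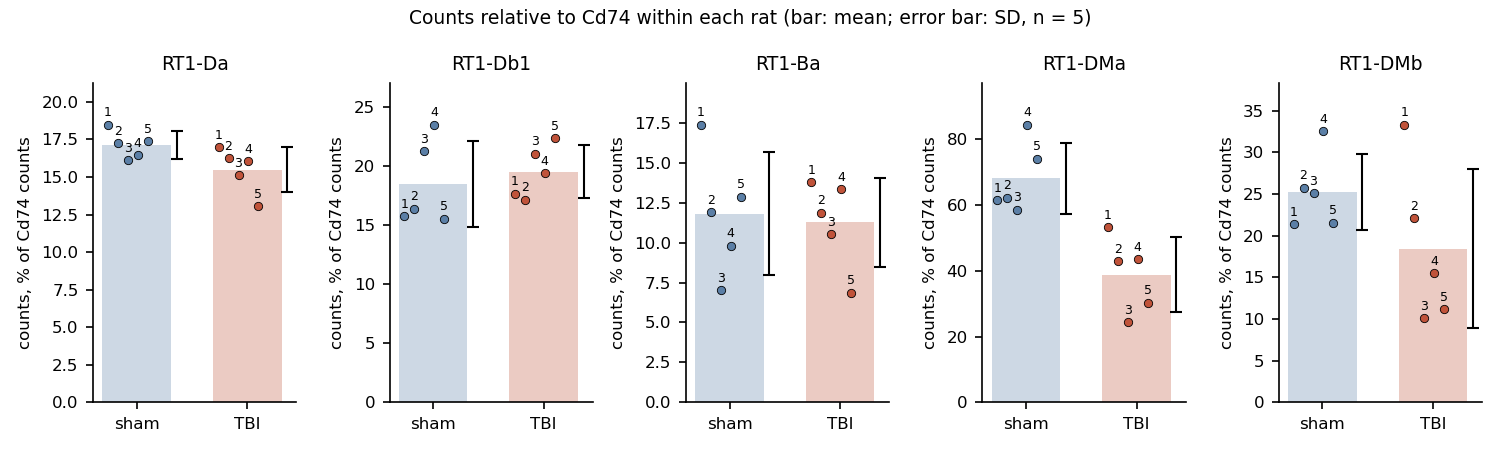
Counts of the other chains as a percentage of Cd74 counts in the same rat, with the group mean as a bar, the SD (n = 5) as an error bar and the number of the rat beside its point. RT1-DMa lies between 58.5% and 84.3% in sham rats and between 24.4% and 53.1% in TBI rats, whereas RT1-Da, RT1-Db1 and RT1-Ba overlap between the groups.

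Ciita, the transactivator on which class II transcription depends, was close to the limit of detection. Its 3 records held 33, 31 and 29 counts over the 10 libraries, below the 44 needed for a test. Summed over the records, it had 8, 5, 3, 5 and 3 counts in sham rats 1 to 5 and 9, 26, 7, 12 and 15 counts in TBI rats 1 to 5. TBI rats 1, 2, 4 and 5 had more counts than any sham rat, and sham rats 4 and 5 had the fewest counts outside ribosomal RNA. On the CPM scale the sum averaged 0.211 ± 0.0902 in the sham group and 0.385 ± 0.188 in the TBI group (SD, n = 5 each), with 3 TBI rats above the highest sham rat. With rows summed per symbol, the log2 change was 0.95 (SE 0.40, edgeR unadjusted p = 0.0303, adjusted p = 0.590), and with the highest row alone and no filter on counts it was 0.87 with a standard error of 0.60 (edgeR unadjusted p = 0.155).

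The genes for proteins that bind class II promoters stayed near 0. All 7 listed were tested, 0 had an unadjusted p under 0.05 by edgeR, and their median log2 change was 0.07. Rfx5 and Rfxap, subunits of the factor at the X box, had log2 changes of 0.08 and 0.10, and Nfyb of the factor at the Y box had -0.06, each with a standard error of 0.10 or less. Of the interferon gamma input, Irf8, a transcription factor of myeloid cells, had a log2 change of 0.46 (SE 0.21, edgeR unadjusted p = 0.0461). The receptor chain Ifngr1 was at 0.17 (SE 0.08, edgeR unadjusted p = 0.0567). The other receptor chain Ifngr2 was at -0.08, Jak1 at -0.09, Jak2 at -0.03 and Irf1 at -0.01. Ifng itself had 0 counts in all libraries.

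The endosomal enzymes that prepare antigen and degrade Cd74 were tested in full, with a median log2 change of 0.23. Of these 8 enzymes 3 had an unadjusted p under 0.05 by edgeR, all higher in TBI, where 4.89% of all rows did. Ctsz was higher by 0.49 with a standard error of 0.17, Ctsh by 0.35 with 0.11, and Ctsd, an abundant aspartic protease, by 0.29 with 0.10. Ctss, the protease best known for the last cuts in the invariant chain, had a log2 change of 0.17 (SE 0.10, edgeR unadjusted p = 0.0982). Among the genes that modulate peptide exchange or turnover, 3 of 4 were tested and 0 had an unadjusted p under 0.05. The antagonists of RT1-DM were low, with at most 3 counts of RT1-DOa and 14 of RT1-DOb in a library, and the ubiquitin ligases Marchf1 and Marchf8, which remove class II from the surface, had log2 changes of 0.08 and 0.07.

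Among receptors and costimulators, 1 of 4 tested genes, higher in TBI, had an unadjusted p under 0.05 (4.89% of all rows in that direction). This was Cd4, the coreceptor that binds class II, which in the rat is also carried by microglia and macrophages. Cd4 was at 6.40, 5.32, 6.37, 4.28 and 4.19 CPM in sham rats 1 to 5 and at 10.9, 7.90, 5.48, 9.49 and 10.4 CPM in TBI rats 1 to 5, a log2 change of 0.71 (SE 0.18, edgeR unadjusted p = 0.00102, adjusted p = 0.478). The order of the TBI rats differed from that of Cd74: TBI rat 1, the lowest in Cd74, was the highest in Cd4, and TBI rat 3 the reverse. Cd86 and Cd40, which costimulate T cells and stimulate the presenting cell, had log2 changes of 0.15 and -0.08. Lag3, an inhibitory receptor for class II, had at most 39 counts in a library and a log2 change of 0.91 (SE 0.48, edgeR unadjusted p = 0.0753).

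**Figure D4:**
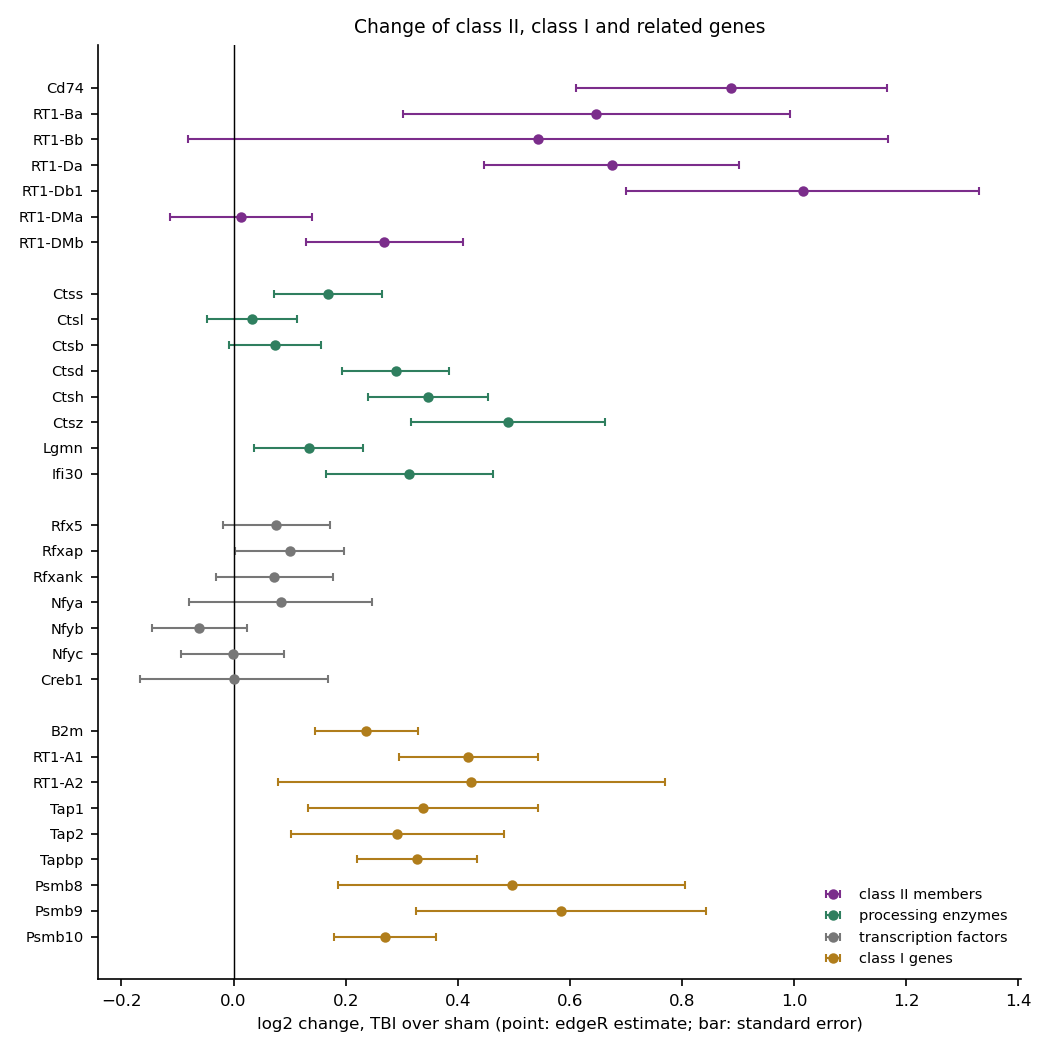
Log2 change of TBI over sham with its standard error, by edgeR, for the tested class II members, the enzymes that prepare antigen, the class II transcription factors and the class I genes. The classical chains and Cd74 lie at 0.54 to 1.02, RT1-DMa at 0.01 and the transcription factors between -0.06 and 0.10.

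The class I genes, which present peptides from the cytosol, were also higher on average. Of 9 tested genes 5 had an unadjusted p under 0.05 by edgeR, all higher in TBI, where 4.89% of all rows did. The median log2 change was 0.34 with a range from 0.24 to 0.58. RT1-A1, a class I heavy chain, was higher by 0.42 with a standard error of 0.12, its light chain B2m by 0.24 with 0.09, and Tapbp, which holds class I at the peptide transporter, by 0.33 with 0.11. The immunoproteasome subunit Psmb10 was at 16.9 to 19.4 CPM in sham rats and 19.5 to 26.1 CPM in TBI rats, without overlap, as in 0.499% of all rows, and Psmb9 was higher by 0.58 with a standard error of 0.26. None had an adjusted p under 0.05, and the difference between the class I and class II changes was not tested.

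Marker genes of several cell types moved with the groups as well. In bulk tissue more cells of a type and more RNA per cell cannot be told apart. Of 15 microglia markers 7 had an unadjusted p under 0.05 by edgeR, all higher in TBI, where 4.89% of all rows did. The 15 markers had a median log2 change of 0.27 and a summed level of 282 to 425 CPM in sham rats and 333 to 460 CPM in TBI rats. The defining microglial genes P2ry12, Tmem119 and Cx3cr1 had log2 changes of 0.18, 0.22 and 0.22 and did not reach that threshold. Cd74 was 10.1%, 7.54%, 6.53%, 5.36% and 7.40% of this sum in sham rats 1 to 5 and 5.95%, 8.72%, 18.9%, 11.1% and 14.1% in TBI rats 1 to 5, a difference of 0.58 on the log2 scale (two-sided exact permutation p = 0.119). Without TBI rat 1 the difference was 0.79 (exact permutation p = 0.0238), and without TBI rat 3 it was 0.38 (exact permutation p = 0.230).

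**Figure D5:**
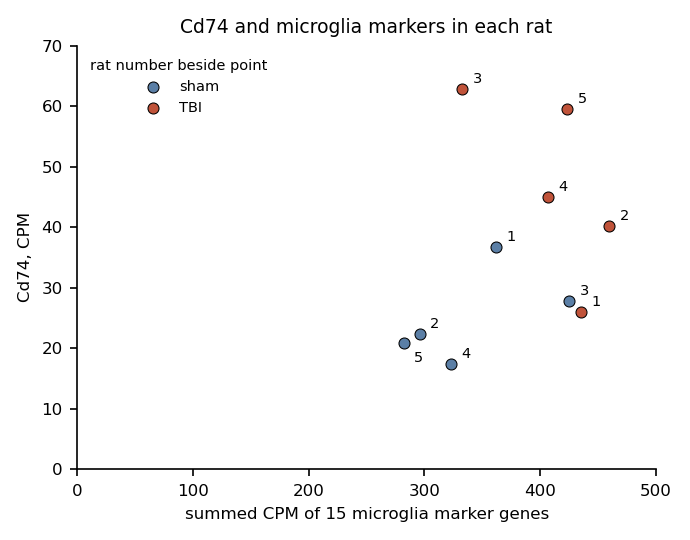
Cd74 level against the summed level of 15 microglia marker genes, both in CPM, with 1 point for each rat and its number. TBI rat 3 has the highest Cd74 (62.8 CPM) with 333 CPM of microglia markers, the least of the TBI rats, and TBI rat 1 has the lowest Cd74 of its group (25.9 CPM) with 436 CPM.

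Of the other lists, 4 of 6 meningeal markers had an unadjusted p under 0.05 and were higher in TBI, where 4.89% of all rows did. Their summed level was 8.93 to 22.2 CPM in sham rats and 16.2 to 26.0 CPM in TBI rats. The same held for 2 of 4 blood markers (183 to 338 and 264 to 415 CPM) and 2 of 5 astrocyte markers (1408 to 2239 and 1569 to 3041 CPM). It also held for 2 of 4 CA1 markers and 1 of 4 choroid plexus markers (5.59 to 34.1 and 10.96 to 35.2 CPM). The blood sum, mostly hemoglobin, was higher in TBI rats 3, 4 and 5 (415, 388 and 343 CPM) than in TBI rats 1 and 2 (264 and 266 CPM), as was Cd74, but among sham rats it was highest in rat 4, which had the least Cd74. Of 4 perivascular macrophage, 3 dendritic cell, 3 T cell, 5 neuron, 4 CA3, 2 dentate granule and 5 oligodendrocyte markers tested, 0 reached that threshold. Perivascular macrophage markers summed to 2.37 to 4.96 CPM in sham rats and 2.88 to 4.55 CPM in TBI rats, and dendritic cell markers to 3.27 to 4.45 and 3.45 to 4.52 CPM. The summed B cell markers were at 0.0625 to 0.204 CPM in sham rats and 0.0290 to 0.235 CPM in TBI rats, and neutrophil markers at no more than 0.187 CPM in any rat, with no gene of either list high enough to test. T cell markers summed to 1.72 to 2.50 CPM in sham rats and 1.52 to 4.74 CPM in TBI rats. No listed marker with a row was at 0 in all 10 libraries. Apart from the ratio of Cd74 to the microglia markers, the part of these cell types in the class II values was not tested.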

How the data were processed

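The table that the authors deposited holds raw counts for each RefSeq RNA record in 5 sham and 5 TBI rats, not normalized and not pooled. According to the study, poly-A RNA was sequenced as single reads of 36 bases, aligned to rn4 with BWA and counted over transcript regions by a custom script. Its treatment of strand and of reads shared between genes is not given in the sources used here. The methods state fewer sham rats for this assay than the labels do, and all 5 labelled rats were used. Unmapped reads (median 22.2%) were kept out of library sizes. Symbols came from a RefSeq table of GRCr8.

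Rows with at least 44 counts in all, the 30th percentile, were tested with edgeR 4.0.16 in R 4.3.3 (quasi-likelihood test, TMM, robust estimation), with Benjamini-Hochberg adjustment over 22431 rows. The SE is the log2 change divided by the square root of F. Single values were compared with two-sided exact permutation tests over 252 labelled splits, on log2 with a pseudocount of 0.5 for CPM. Named genes are the members, list genes with an unadjusted p under 0.05 or needed to show that a list stayed near 0, and the 10 genes most like the members. Ctss, Lag3, Ifngr1, Marchf1, Marchf8 and the microglial genes were named after their values were seen. Alternatives used DESeq2 1.42.0, limma 3.58.1 (voom, always with sample weights), sva 3.50.0, other scalings, other filters and left-out rats. 1 gene of the interferon gamma list is not reported here. The fit was tested on simulated data. The members and lists were chosen with earlier results of these data known. Whether rats shared a litter is not stated, so p-values measure the spread between these rats.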

Additional observations from a re-analysis of the deposited data

Results flagged for a closer look

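All 4 values set apart by Dixon's criterion for 5 samples came from sham rat 1. Its RT1-Ba level was 6.37 CPM, against 1.70 to 2.69 CPM in the other sham rats. Its RT1-Bb level was 6.46 CPM, against 0.877 to 2.37 CPM, and both RT1-Bb records together were at 7.08 CPM, against 1.63 to 2.81 CPM. Its RT1-DMa level was 22.5 CPM, against 13.9 to 16.2 CPM. Of 26 groups of values examined, 4 were set apart, where chance gives about 1.30, and the RT1-Bb values are not independent of each other. In the same rat Cd74 (36.6 CPM) and RT1-Da (6.77 CPM) were also the highest of the sham group, whereas RT1-Db1 (5.77 CPM) was below sham rat 3 (5.91 CPM). Its microglia markers summed to 362 CPM, within the 282 to 425 CPM of the group. Other marker sums set it apart. Its dentate granule markers summed to 42.9 CPM, against 130 to 164 CPM in the other sham rats. Its CA3 (2035 CPM) and meningeal (22.2 CPM) sums were the highest of the sham group. Its oligodendrocyte (2146 CPM) and blood (183 CPM) sums were the lowest. The part of tissue composition in its class II values was not tested.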

How the results depend on the processing

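Members past an adjusted p of 0.05 numbered 2 by edgeR's exact test without robust estimation and 2 with total count scaling, Cd74 and RT1-Db1 in both, and 0 in all other fits. Members with an unadjusted p under 0.05 numbered 5 by limma voom, 6 with total count scaling and 0 with the ribosomal share as a covariate. They numbered 2 with a surrogate variable (Cd74 and RT1-Db1), 0 without sham rats 4 and 5, and 3 to 6 with each rat left out (6 without sham rat 1). Of all rows, 4.89% were higher at that threshold with all rats, 4.70% by limma voom, 16.8% with total count scaling, 12.5% with scaling outside ribosomal RNA, 2.45% with the covariate, 2.81% with a surrogate variable, 3.30% without sham rats 4 and 5, 4.46% without sham rat 1 and 7.54% without sham rat 3 and TBI rat 3, so the counts over members and lists stand beside backgrounds that also moved. Under 0.001 there were 1 by the exact and 1 by the likelihood ratio test, 2 by the exact test without robust estimation, 4 by limma voom, 4 with total count scaling and 0 to 2 with each rat left out. Other pathway genes under 0.05 numbered 6, and 10 with total count scaling, 12 with scaling outside ribosomal RNA, 1 with the covariate, 2 with a surrogate variable, 2 without sham rats 4 and 5, 11 without sham rat 3 and TBI rat 3, and 4 to 10 with each rat left out (10 without sham rat 3 or TBI rat 3). Class I genes numbered 5, and 9, 1, 3, 3 and 9 with total count scaling, the covariate, the surrogate variable, without sham rats 4 and 5, and without sham rat 3 and TBI rat 3, and 3 to 9 with each rat left out (9 without sham rat 3, 3 without sham rat 5 or TBI rat 1). The causes were not tested.

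The Cd74 difference was 0.64 without sham rats 4 and 5 (exact permutation p = 0.107), 0.79 without sham rat 3 and TBI rat 3 (exact permutation p = 0.0571) and 0.75 to 1.06 with each rat left out. Relative to the microglia markers it was 0.45 without sham rats 4 and 5 (exact permutation p = 0.304) and 0.34 without sham rat 3 and TBI rat 3 (exact permutation p = 0.343). With each rat left out that relative difference was 0.38 to 0.79. The ratio of RT1-DMa to Cd74 was -0.70 without sham rats 4 and 5 and -0.98 to -0.70 with each rat left out. The sign of the RT1-DMa change turned with the covariate (-0.10), the surrogate variable (-0.084) and without sham rats 4 and 5 (-0.061), and it ran from -0.046 to 0.15 with each rat left out. The other 6 tested members kept their direction in every fit.

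With total count scaling the median log2 change of all rows was 0.50, against -0.01 with TMM. Relative to that median Cd74 was at 0.83 and RT1-Da at 0.63. Over all alternatives the adjusted p was 0.0162 to 0.974 for Cd74 and 0.00413 to 0.974 for RT1-Db1. Ciita, below the count minimum, was given only without a filter and with rows summed per symbol. No paired analysis was possible because the rat numbers only follow the order of the samples. Members at a few CPM had as few as 18 counts in a library, which limits their precision. The exact test without robust estimation, the sum of both RT1-Bb records and the ratio of RT1-DMa to Cd74 were chosen after the data were seen.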

Other observations

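The TBI rats with the most class II RNA were not those with the most glial marker RNA. TBI rats 3 and 5 had the most Cd74 (62.8 and 59.5 CPM) and RT1-Db1 (13.2 and 13.3 CPM). TBI rat 3 had the lowest sums of microglia markers (333 CPM) and of astrocyte markers (1569 CPM) in its group, and the lowest Cd4, Ctsd, Ctsh and Ctsz. TBI rat 5 did not share this. Its microglia (423 CPM) and astrocyte (2392 CPM) sums lay within those of its group, and it had the highest Ctsd (343 CPM). TBI rat 1 had the least Cd74 (25.9 CPM) with 436 CPM of microglia markers, the highest sum of astrocyte markers (3041 CPM) and the highest Ctsh (50.6 CPM). With 5 rats these orders are a description.

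The genes whose levels were most like the mean profile of the 7 members with a mean of at least 1 CPM, over the 10 rats and among 10710 candidates, were Notch4, Afg2b, Zmiz2, Rtn2, Slco3a1, Tysnd1, Plekhm2, Rin1, Mark4 and Bag6. Pearson correlations, used here as the measure of likeness, ran from 0.93 for Notch4 to 0.87 for Bag6, and from 0.91 to 0.79 after each group was centred on its own mean. The rats share depth and library composition in all these values. Their changes were small, with log2 changes from 0.09 for Bag6 to 0.30 for Afg2b. On GRCr8, 3 of the 10 (Notch4, Tysnd1 and Bag6) are on chromosome 20. That chromosome holds 3.17% of all named genes with a row, a wider set than the 10710 candidates, whose share was not counted. Notch4 lies 10 protein-coding genes before RT1-Da, and Bag6 lies 55 before it. The distance of Tysnd1 from RT1-Da was not counted.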
